A study of Mus musculus with 4 samples.

Results

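Matrix metalloproteinases, ADAM and ADAMTS proteases, ADAMTS-like proteins and their inhibitors were followed in mouse cardiac fibroblasts that overexpressed Nr4a3. The members were the rows of the deposited count table whose gene symbol named an Mmp, Timp, Adam, Adamts, Adamtsl or Reck gene, which gave 86 of 55359 rows: 23 MMP, 4 TIMP, 34 ADAM, 19 ADAMTS and 5 ADAMTSL genes, and Reck. The symbol alone picked the rows, not a measured value, but earlier results of these data were known when the members were chosen. The cells were primary cultures of wild-type mouse heart, with an age label of P1 to P3 and the cell type label cardiac fibroblast. One group overexpressed the nuclear receptor Nr4a3 (OENr4a3, 2 libraries) and the other carried the overexpression control (OECtrl, 2 libraries). The titles give day 10, while the series design gives reprogramming day 7, so the time point cannot be settled here. The comparison addresses by what route overexpressed Nr4a3 inhibits the reprogramming of fibroblasts into induced cardiomyocytes. None of the vector, its promoter and any reprogramming factors in the cells is given in the sources used here.

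These families control the breakdown and remodelling of the matrix around fibroblasts. Matrix metalloproteinases are zinc proteases, mostly secreted in a latent form, that cut collagens, gelatin, elastin and other matrix proteins. The tissue inhibitors of metalloproteinases (TIMPs) block them, and so does the membrane-anchored protein encoded by Reck. ADAM proteases mainly release the outer parts of membrane proteins, ADAMTS proteases are secreted and cut proteoglycans or trim procollagens, and ADAMTS-like proteins share their binding domains but lack the protease domain. In the heart, fibroblasts are a main source of both the proteases and the inhibitors.

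Many of the Mmp genes lie side by side on chromosome 9, and their promoters are known for a binding site of the transcription factor AP-1 close to the start. All 10 Mmp genes of this run were in the RefSeq promoter table (GRCm38.p6). The motif TGANTCA, which reads the same on both strands, was within 120 bases upstream of a listed start in 8 of the 12 windows of these 10 genes (66.7%), against 1120 of 32851 windows of all genes (3.41%) and 1 of 48 windows of the other members (2.08%). The 8 matches began between 35 bases (Mmp13) and 95 bases (Mmp20) upstream, each in a different gene, and Mmp8 and Mmp27 had none. The 120 bases upstream of the start are shown for the 4 genes of the run that had both the motif and a tested level, written in the direction of transcription with the motif in capitals.
Mmp13 (chr9:7272394-7272513, plus strand): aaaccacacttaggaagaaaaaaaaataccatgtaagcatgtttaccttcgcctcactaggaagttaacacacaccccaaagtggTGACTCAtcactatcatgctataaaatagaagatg
Mmp12 (chr9:7347254-7347373, plus strand): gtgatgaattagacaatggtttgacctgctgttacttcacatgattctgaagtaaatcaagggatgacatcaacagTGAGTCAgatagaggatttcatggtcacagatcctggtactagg
Mmp3 (chr9:7445702-7445821, plus strand): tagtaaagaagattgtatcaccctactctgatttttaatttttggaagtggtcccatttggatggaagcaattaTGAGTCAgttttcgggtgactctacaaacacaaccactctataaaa
Mmp10 (chr9:7502222-7502341, plus strand): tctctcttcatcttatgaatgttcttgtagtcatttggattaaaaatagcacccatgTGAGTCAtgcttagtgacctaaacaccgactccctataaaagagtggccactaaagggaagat
The motif letters were TGACTCA in Mmp13 and TGAGTCA in the other 3 genes. It began 44 bases upstream in Mmp12 (at 1 of its 2 listed starts), 46 in Mmp3 and 63 in Mmp10. The response element of NR4A receptors, NBRE (AAAGGTCA, searched on both strands from 250 bases before to 50 bases after the start), was in none of the 55 members that the table held and in 460 of 27025 genes overall (1.70%). The table held 9 of the 14 members that rose and 3 of the 4 that fell. A match is a run of letters and not a proven site, and a missing match concerns this window alone.

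The libraries held 18441428 and 18287644 reads in OENr4a3 and 14275501 and 16461333 in OECtrl. Levels are in CPM, the reads of a gene scaled to the size of its library. Where a library had no read, counting error alone allows 3 reads, which is 0.165 to 0.208 CPM. Nr4a3 itself had 3184 and 3196 reads in OENr4a3, against 36 and 31 in OECtrl. The OECtrl pair differed more from each other than the OENr4a3 pair, with a chi-square over its degrees of freedom of 2.55 in OENr4a3 and 15.5 in OECtrl. The labels do not state whether the 2 libraries of a group were separate cultures. The p-values therefore reflect library-to-library spread alone, and that spread may be technical. The fibroblast markers were abundant, with a summed level of 19000 to 19130 CPM in OENr4a3 and 17770 to 18740 CPM in OECtrl over 9 genes. Markers of other cells were present as well. Of 9 mesothelial and epicardial markers, 6 fell and none rose (summed level 441.7 to 475.2 CPM in OENr4a3, 987.2 to 1056 in OECtrl), and of 12 macrophage markers 6 fell and none rose (652.9 to 675.6 CPM in OENr4a3, 992.0 to 1013 in OECtrl). The 9 and 12 genes were all tested, and none was at 0. Of all tested genes, 11.0% fell and 12.0% rose. In bulk cultures, fewer cells of a type and less RNA per cell cannot be told apart, and the part of these cells in the results below was not tested. These 2 marker sets are short, with medians of 3064 and 2260 exonic bases, against 4126 over all tested genes. They were not refitted with the trend of levels with gene length removed, so its part in these falls was not tested.

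Of the 86 members, 71 had at least 1 read, 51 passed the filter on low counts and 35 did not. Among those 51, 14 rose and 4 fell in OENr4a3 in edgeR's quasi-likelihood test with Benjamini-Hochberg adjustment over all genes (adjusted p under 0.05). That was 35.3% of the tested members, against a background of 23.0% of the 15029 genes tested. By direction it was 27.5% of members higher, against 12.0% of all genes, and 7.84% lower, against 11.0% of all genes. The median log2 fold change was 0.21 over the tested members and -0.01 over all genes, with 39 of the 51 members above 0. The members' median was 0.05 once the trend of levels with gene length was removed, with 27 of 51 above 0. It was 0.39 without OECtrl replicate 1 and 0.09 without OECtrl replicate 2. Both OENr4a3 libraries lay above both OECtrl libraries for 27 of the 51, and below for 6, against 34.0% and 34.2% of all genes. The calls of 7 members (Reck, Mmp11, Mmp13, Timp1, Adamts14, Adamts15 and Adam22) held their direction and side of the threshold in all 12 alternative fits.

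**Figure D1:**
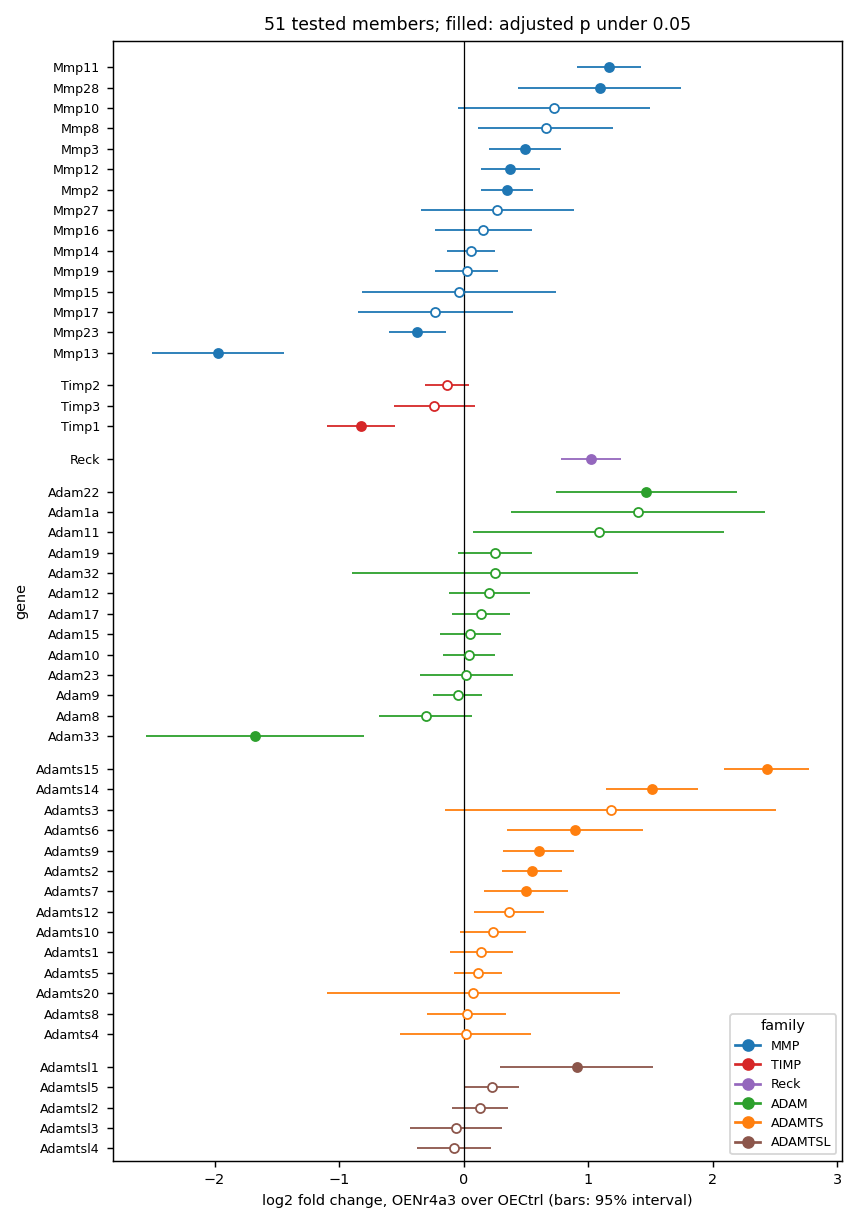
Log2 fold change of OENr4a3 over OECtrl for the 51 tested members (x axis) by gene (y axis), coloured by family, with 95% intervals; filled points passed at an adjusted p under 0.05. Adamts15 at 2.43 is the highest and Mmp13 at -1.97 the lowest, and the 14 tested ADAMTS genes all lie right of 0.

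Levels differ widely between members, and they are set against each other here per kilobase of exonic length (RPKM). Timp2 was the most abundant at a mean of 766.3 RPKM over the 4 libraries, ahead of the membrane-anchored protease gene Mmp14 at 211.2, Adam9 at 193.3, Mmp2 at 165.8, Timp3 at 144.5 and Timp1 at 142.2. The leading members of the other families were Adamts5 at 86.75 and Adamtsl2 at 63.5 RPKM. Timp3 lay above Timp1 in OENr4a3 (129.5 and 136.0 RPKM, against 100.4 and 104.9). In OECtrl these neighbours overlapped (183.7 and 128.9 RPKM for Timp3, 162.6 and 200.8 for Timp1). The difference between these genes was not tested. Mmp14 and Mmp2 together made up most of the MMP level: Mmp14 held 42.2% and 42.1% of the family's summed RPKM in OENr4a3, against 45.5% and 46.2% in OECtrl, and Mmp2 held 35.8% and 36.8%, against 32.7% and 32.0%.

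**Figure D2:**
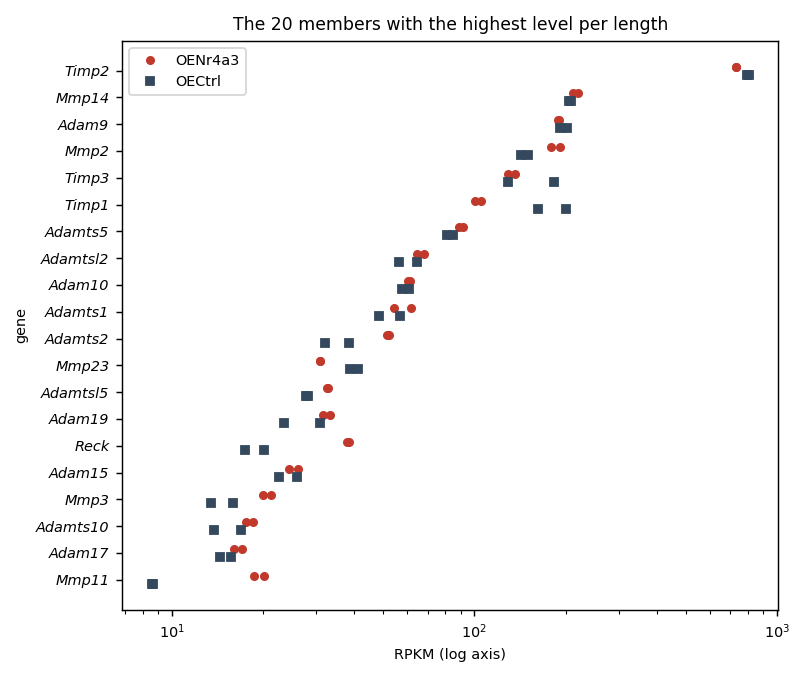
Level per length (RPKM, x axis, log scale) of the 20 members with the highest mean, by gene (y axis), with 1 point per library, OENr4a3 as circles above OECtrl as squares. Timp2 stands above all others. The groups do not overlap for Timp1, Mmp2, Adamts2, Mmp23, Reck, Mmp3 and Mmp11, which passed. Some genes that did not pass, such as Timp2 and Adamtsl5, have separate groups as well.

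Of the inhibitor genes, Timp1 fell and Reck rose, while Timp2 and Timp3 did not pass and Timp4 had no read. Timp1, a secreted inhibitor that is readily induced in fibroblasts, fell: it measured 89.2 and 93.2 CPM in OENr4a3, against 144.4 and 178.3 CPM in OECtrl (log2 fold change -0.82 ± 0.121 SE, adjusted p = 0.00279, edgeR). Both OENr4a3 libraries lay below both OECtrl libraries. Timp1 is short, at 888 exonic bases, and with the trend of levels with gene length removed its log2 fold change was -0.53 (adjusted p = 0.00323).

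Reck rose 2.03-fold. It encodes a glycoprotein anchored to the cell surface that restrains several metalloproteinases. Its level was 183.6 and 180.8 CPM in OENr4a3, against 96.3 and 83.3 CPM in OECtrl (log2 fold change 1.02 ± 0.108 SE, adjusted p = 0.000467, edgeR). The OENr4a3 pair nearly coincided, well above the OECtrl pair.

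Timp2 and Timp3 did not pass. Timp2, which besides inhibiting takes part in the activation of pro-MMP2 by MMP14, measured 2845 and 2852 CPM in OENr4a3, against 3105 and 3140 in OECtrl (log2 fold change -0.13, 95% interval -0.31 to 0.05, adjusted p = 0.246, edgeR). It lies lower in both OENr4a3 libraries, and it passed without OECtrl replicate 1. Timp3, the matrix-bound inhibitor that also blocks ADAM17 and several ADAMTS proteases, measured 1055 and 1107 CPM in OENr4a3, against 1496 and 1050 in OECtrl. The groups overlap for Timp3, whose 2 OECtrl libraries stand apart (log2 fold change -0.24, interval -0.56 to 0.09, adjusted p = 0.26). It stood at 0.05 without OECtrl replicate 1 (adjusted p = 0.474), and it passed in 2 fits. These were the fit that left out OECtrl replicate 2 (-0.47, adjusted p = 4.11e-05) and the one free of the length trend (-0.44, adjusted p = 0.0152). Timp4 had 0 reads in all 4 libraries. Summed over their families per length, the TIMP level was 960.1 and 973.0 RPKM in OENr4a3 and 1143 and 1136 in OECtrl, and the MMP level was 500.2 and 521.9 RPKM in OENr4a3 and 458.8 and 443.9 in OECtrl. The TIMP over MMP ratio of these sums was 1.92 and 1.86 in OENr4a3 and 2.49 and 2.56 in OECtrl, a description of transcript levels with no test.

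**Figure D3:**
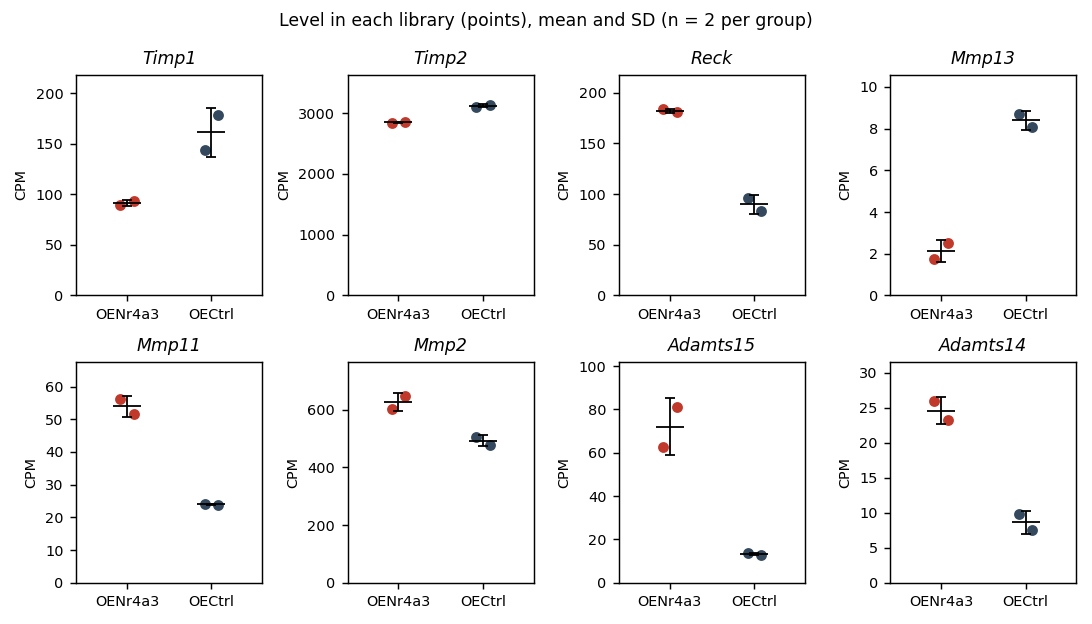
CPM (y axis, from 0) of 8 members in each library, OENr4a3 left and OECtrl right, with points for libraries and bars for the mean and SD (n = 2 each). Timp1 and Mmp13 lie lower in OENr4a3, while Reck, Mmp11, Mmp2, Adamts15 and Adamts14 lie higher. Timp2 also lies lower in both OENr4a3 libraries but did not pass the test.

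Of the 15 tested MMP genes, 5 rose (33.3%, against 12.0% of all genes) and 2 fell (13.3%, against 11.0% of all genes). Mmp11, stromelysin-3, which is activated inside the cell by furin, rose 2.25-fold, with 56.2 and 51.7 CPM in OENr4a3 and 24.15 and 23.9 CPM in OECtrl (log2 fold change 1.17 ± 0.115 SE, adjusted p = 0.000324, edgeR). The 2 libraries of each group lay close together. Mmp11 overlaps Chchd10 on the other strand, which also rose (18.85 CPM in OENr4a3, 10.4 CPM in OECtrl; log2 fold change 0.85, adjusted p = 0.0127), and as no source used here states whether counting used strand, reads of the shared part cannot be told apart. Mmp2, the gelatinase A gene, rose to 603.7 and 647.9 CPM in OENr4a3, against 505.4 and 479.0 CPM in OECtrl (log2 fold change 0.35 ± 0.0927 SE, adjusted p = 0.028). Its groups did not overlap, although the difference was 1.27-fold. Mmp28, epilysin, was scarce and measured 4.02 and 3.62 CPM in OENr4a3, against 1.45 and 2.09 CPM in OECtrl (log2 fold change 1.09 ± 0.292 SE, adjusted p = 0.028). It overlaps 1700020L24Rik on the other strand, which measured 0.968 CPM in OENr4a3 and 0.472 CPM in OECtrl and did not pass (1.00, adjusted p = 0.175). The calls of Mmp2 (adjusted p up to 0.434) and Mmp28 (up to 0.152) were lost without either OENr4a3 library, and that of Mmp28 in DESeq2 as well.

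Mmp13, the collagenase-3 gene, fell 3.93-fold. It had 32 and 45 reads in OENr4a3, against 126 and 135 in OECtrl, or 1.76 and 2.50 CPM against 8.72 and 8.08 CPM (log2 fold change -1.97 ± 0.235 SE, adjusted p = 0.000946, edgeR). The 2 groups stand far apart next to the spread within them. Mmp23, a membrane-bound family member, also fell, with 72.2 CPM in each OENr4a3 library, against 90.65 and 96.4 CPM in OECtrl (log2 fold change -0.37 ± 0.101 SE, adjusted p = 0.0296). That call was lost without either OENr4a3 library, without the filter on low counts and with the length trend removed (-0.23, adjusted p = 0.0836).

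Within the run on chromosome 9, Mmp13 was the 1 tested gene that fell. The 10 genes span 427.1 kb (GRCm38, 7272514 to 7699585) in the order Mmp13, Mmp12, Mmp1b, Mmp3, Mmp1a, Mmp10, Mmp8, Mmp27, Mmp20 and Mmp7. Mmp3, stromelysin-1, rose to 36.1 and 38.4 CPM in OENr4a3, against 28.65 and 24.35 CPM in OECtrl (log2 fold change 0.49 ± 0.127 SE, adjusted p = 0.0252). Mmp12, macrophage elastase, rose to 112.2 and 105.1 CPM in OENr4a3, against 88.0 and 79.6 CPM in OECtrl (log2 fold change 0.37 ± 0.106 SE, adjusted p = 0.0337). The part of macrophages in this level was not tested. The groups of Mmp3 and of Mmp12 did not overlap, but both calls were lost without either OENr4a3 library and without the filter on low counts. That of Mmp12, with 7237 exonic bases, was also lost once the length trend was taken out (0.20, adjusted p = 0.135). Mmp3 has 1801 exonic bases and still passed there (0.70, adjusted p = 0.00501).

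The next genes of the run were scarcer and did not pass. Mmp8, a collagenase best known from neutrophils, had 125 and 111 reads in OENr4a3 and 73 and 55 in OECtrl (log2 fold change 0.66, adjusted p = 0.0752, passing in 3 alternative fits). The 7 neutrophil markers together had 7 and 3 reads in OENr4a3 and 6 and 8 in OECtrl, with Elane, Ltf and Ngp at 0. The cell source of the Mmp8 reads was not tested. Mmp10 stood at a log2 fold change of 0.73 (adjusted p = 0.147) and Mmp27 at 0.27 (adjusted p = 0.495). Mmp1b, Mmp20, Mmp1a and Mmp7 had 0 to 6 reads in any library. The AP-1 motif shown above was thus present upstream of the tested gene that fell, of both that rose, and of Mmp10. Whether the response of Mmp13 differs from that of its neighbours was not tested.

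**Figure D4:**
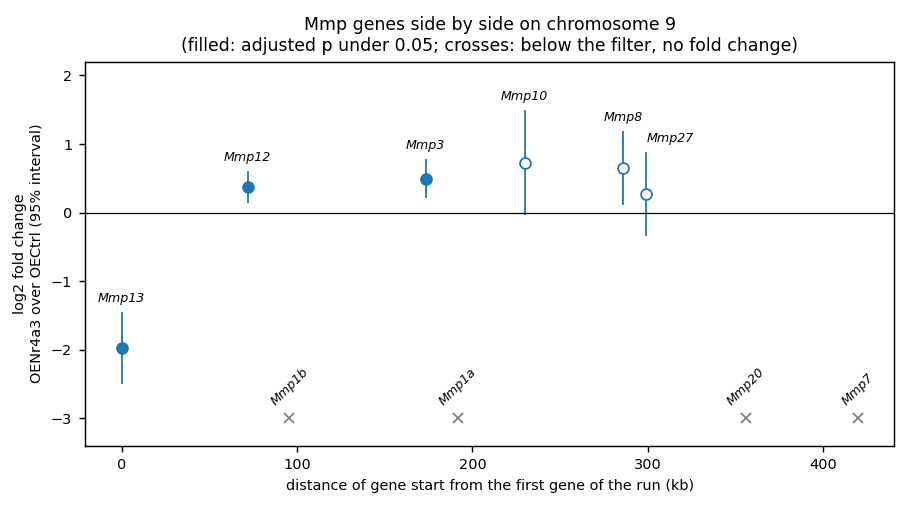
Log2 fold change of OENr4a3 over OECtrl with its 95% interval (y axis) against the distance of each gene's start from that of Mmp13 (x axis, kb), for the Mmp genes of chromosome 9; filled points passed, crosses mark 4 genes below the filter and have no fold change. Mmp13 lies at -1.97 and the other 5 tested genes lie between 0.27 and 0.73.

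The abundant MMP genes that did not pass were Mmp14, Mmp16 and Mmp19. Mmp14, which encodes the main membrane-type collagenase and activator of pro-MMP2, measured 1259 and 1310 CPM in OENr4a3, against 1244 and 1223 in OECtrl (log2 fold change 0.06, 95% interval -0.13 to 0.25, adjusted p = 0.644, edgeR). Mmp16 stood at 0.16 (interval -0.23 to 0.55, passing without OECtrl replicate 1) and Mmp19 at 0.02 (interval -0.23 to 0.27). Mmp9, gelatinase B, had 1 and 1 reads in OENr4a3 and 1 and 0 in OECtrl.

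Of the 14 tested ADAMTS genes, 6 rose, none fell and 8 did not pass, so that 42.9% were higher, against 12.0% of all genes. Adamts15, which cleaves versican and aggrecan, rose 5.40-fold, the largest difference among the tested members. It measured 62.8 and 81.2 CPM in OENr4a3, against 13.8 and 12.9 CPM in OECtrl (log2 fold change 2.43 ± 0.152 SE, adjusted p = 2.91e-05, edgeR). The OENr4a3 pair is uneven, but both libraries stand far above the OECtrl pair. Adamts8 starts from the opposite strand 20.1 kb away on chromosome 9 and did not pass, with 18.1 and 20.1 CPM in OENr4a3 and 20.1 and 17.5 CPM in OECtrl (log2 fold change 0.02, 95% interval -0.29 to 0.34, adjusted p = 0.914). The difference between these neighbours was not tested.

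The procollagen N-propeptidases, which trim the amino ends of fibrillar procollagens, were next. Adamts14 rose 2.85-fold, with 25.9 and 23.3 CPM in OENr4a3 and 9.83 and 7.48 CPM in OECtrl (log2 fold change 1.51 ± 0.166 SE, adjusted p = 0.000577). Adamts2, about an order of magnitude more abundant per length (51.7 RPKM, against 4.73 RPKM for Adamts14, in OENr4a3), rose to 479.4 and 485.9 CPM in OENr4a3, against 358.9 and 300.2 CPM in OECtrl (log2 fold change 0.55 ± 0.108 SE, adjusted p = 0.00953). For both genes the groups were separate, and the OECtrl pair differed more for Adamts2. The call of Adamts2 was lost without either OENr4a3 library (adjusted p up to 0.0925), and its log2 fold change was 0.29 with the length trend removed (adjusted p = 0.0257). The third member of this group, Adamts3, was scarce, with 13 and 27 reads in OENr4a3 and 10 and 5 in OECtrl, and did not pass (adjusted p = 0.171).

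Adamts9, a versican-cleaving protease, rose to 86.0 and 82.45 CPM in OENr4a3, against 61.8 and 49.2 CPM in OECtrl (log2 fold change 0.60, adjusted p = 0.0122). Adamts7, which cleaves cartilage oligomeric matrix protein, rose to 23.0 and 26.3 CPM, against 19.2 and 15.7 CPM in OECtrl (0.50, adjusted p = 0.0391). It overlaps Tbc1d2b on the other strand, a more abundant gene in CPM that measured 82.9 CPM in OENr4a3 and 62.0 CPM in OECtrl and did not pass (0.42, adjusted p = 0.0761). Adamts6, linked to fibrillin microfibrils, rose to 5.01 and 5.675 CPM in OENr4a3, against 3.32 and 2.45 CPM in OECtrl (0.90, adjusted p = 0.03). The groups of these 3 genes did not overlap, but their calls were lost in 3, 7 and 6 of the 12 alternative fits, among them the removal of the length trend and leaving out either OENr4a3 library. The proteoglycan-cleaving Adamts1 and Adamts5 measured above 10 CPM without passing, at log2 fold changes of 0.14 and 0.12, as did Adamts10 at 0.24 and Adamts12 at 0.37 (adjusted p = 0.0608). Adamts1, Adamts10 and Adamts12 passed as higher without OECtrl replicate 1, and Adamts5 and Adamts12 without OECtrl replicate 2. Adamts12 also passed with a block on the replicate number. Adamts5 was the most abundant of the family, at 990.9 and 956.2 CPM in OENr4a3 and 878.9 and 918.6 CPM in OECtrl.

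The signs within the ADAMTS family changed with removal of the length trend. All 14 tested ADAMTS genes had log2 fold changes above 0 (median 0.43), but these genes are long, with a median of 8026 exonic bases, against 4126 over all tested genes. With the trend of levels with length removed, 10 stood above 0 and 4 below, 3 were called higher (Adamts15, Adamts14 and Adamts2), and the median was 0.12. With upper-quartile scaling, 12 stood above 0 and 2 below. In limma-voom, 13 stood above 0 and 1 below, and leaving out any 1 library left 12 or 13 above 0. Over all families, removal of the length trend left 11 members higher and 4 lower, 12 of them among the 18 calls of the unadjusted fit.

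**Figure D5:**
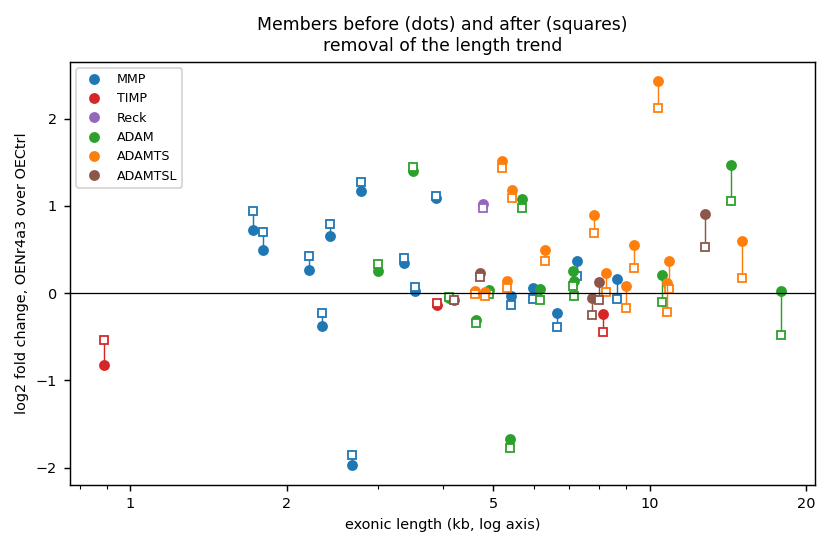
Log2 fold change of OENr4a3 over OECtrl (y axis) of the 51 tested members against exonic length (x axis, kb, log scale), before (dots) and after (squares) removal of the trend of levels with length, coloured by family. Long genes move down and short genes up, and Adamts15, at 2.43 before and 2.12 after, and Mmp13, at -1.97 and -1.86, stay farthest from 0.

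Of the 5 ADAMTS-like genes, all tested, 1 rose and none fell, while 12.0% of all genes rose and 11.0% fell. With 5 genes, 1 call cannot set this family apart from all genes. The gene that rose was Adamtsl1, with 5.62 and 4.56 CPM in OENr4a3 and 3.32 and 2.15 CPM in OECtrl (log2 fold change 0.91 ± 0.272 SE, adjusted p = 0.0409). Its call was lost in 5 of the 12 alternative fits, among them DESeq2 and the removal of the length trend. The most abundant, Adamtsl2, whose product binds fibrillin microfibrils, did not pass, at 515.0 and 545.7 CPM in OENr4a3 and 517.4 and 451.0 CPM in OECtrl (log2 fold change 0.13, 95% interval -0.10 to 0.36). Adamtsl5, Adamtsl3 and Adamtsl4 stood at 0.23, -0.06 and -0.08 without passing. Adamtsl2 and Adamtsl5 passed as higher without OECtrl replicate 1, and Adamtsl5 also without OECtrl replicate 2.

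Of the 13 tested ADAM genes, 1 rose and 1 fell, which is 15.4% called, against 23.0% of all genes. Adam10 and Adam17 encode the main sheddases of cell surface proteins. Adam10 measured 300.7 and 297.3 CPM in OENr4a3, against 298.5 and 283.3 CPM in OECtrl (log2 fold change 0.04, 95% interval -0.17 to 0.25, adjusted p = 0.784, edgeR). Adam17 measured 115.1 and 122.5 CPM in OENr4a3, against 112.5 and 103.2 CPM in OECtrl (0.14, interval -0.09 to 0.37, adjusted p = 0.344). The groups overlap for Adam10, and for Adam17 both OENr4a3 libraries lie slightly above. Adam9, the most abundant ADAM gene, stood at -0.05 (interval -0.25 to 0.15). Adam12, Adam15, Adam19 and Adam8, above 10 CPM as well, stood at 0.21, 0.05, 0.25 and -0.31. Of these, Adam12, Adam17 and Adam19 passed as higher without OECtrl replicate 1, and Adam8 as lower without OECtrl replicate 2.

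Adam22, whose product lacks protease activity and serves as a receptor in the nervous system, rose 2.77-fold. It had 68 and 68 reads in OENr4a3, against 25 and 17 in OECtrl (log2 fold change 1.47 ± 0.322 SE, adjusted p = 0.0142). Both OENr4a3 libraries lay above both OECtrl libraries. Adam33, a protease known for its link to asthma and expressed by mesenchymal cells, fell. It had 24 and 17 reads in OENr4a3, against 36 and 79 in OECtrl (log2 fold change -1.68 ± 0.39 SE, adjusted p = 0.0174). The groups of Adam33 do not overlap, but its OECtrl pair differs widely, and without OECtrl replicate 2 the log2 fold change was -1.13 (adjusted p = 0.0822). Most of the untested members were ADAM genes, 21 of 35, and 11 ADAM genes had no read in any library. The untested members with the most reads were Adam4, Adam5 and Adamts17, with 28, 23 and 20 reads over the 4 libraries.

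Genes that act with these families were read from 4 lists, without the members themselves. The lists were chosen with earlier results of these data known. Of 26 tested partners in protease activation and inhibition, 7 rose and 7 fell (median log2 fold change 0.02), or 53.8% called, against 23.0% of all genes. They have a median of 5196 exonic bases, against 4126 over all tested genes, and were not recounted with the length trend removed. Tll1, a tolloid-like procollagen C-proteinase, rose to 27.8 CPM in OENr4a3, against 3.39 CPM in OECtrl (log2 fold change 3.04, adjusted p = 1.64e-05). The urokinase receptor gene Plaur fell to 7.53 CPM, against 18.1 CPM in OECtrl (-1.27, adjusted p = 0.00129), and Plat, tissue plasminogen activator, rose to 148.3 CPM, against 90.2 CPM in OECtrl (0.72, adjusted p = 0.00196).

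Of 21 tested ADAMTS substrates and ADAMTSL partners, 10 rose and 2 fell (median log2 fold change 0.31), or 57.1% called, against 23.0% of all genes. These genes are long, with a median of 7469 exonic bases, against 4126 over all tested genes. The count was not repeated with the length trend removed, so its part in this share was not tested. Hapln1, which links hyaluronan to versican and aggrecan, rose to 9.28 CPM in OENr4a3, against 0.77 CPM in OECtrl (3.58, adjusted p = 8.00e-05). Thbs2, thrombospondin-2, rose to 702.3 CPM, against 278.3 CPM in OECtrl (1.34, adjusted p = 9.93e-05), as did the fibrillin gene Fbn2 (1.42, adjusted p = 0.000843). Picked after its value was seen, the versican gene Vcan, a substrate of several ADAMTS proteases, rose to 83.2 CPM, against 42.4 CPM in OECtrl (0.97, adjusted p = 0.00108). Vcan has 14462 exonic bases and was not refitted with the length trend removed. Fibronectin from Fn1, the most abundant per length that did not pass, stood at 0.55 (adjusted p = 0.054) and passed in 6 of 12 alternative fits.

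Of 14 tested genes of ADAM maturation and trafficking, 2 rose and 1 fell (median -0.08), or 21.4% called, near the 23.0% of all genes. Sh3pxd2a (0.73, adjusted p = 0.0092) and Sh3pxd2b (0.78, adjusted p = 0.016), scaffolds of the protrusions where cells degrade matrix, rose. Tspan5, a tetraspanin partner of ADAM10, fell (-0.80, adjusted p = 0.00313), and Snx9 did not pass (log2 fold change -0.0039, adjusted p = 0.981). Of 32 tested substrates of ectodomain shedding, 4 rose and 3 fell (median 0.04), or 21.9% called, also near that of all genes. Syndecan-4 from Sdc4 (-0.82, adjusted p = 0.00102) and the ephrin gene Efnb2 (-0.62, adjusted p = 0.00671) fell, the TNF receptor gene Tnfrsf1b rose (0.70, adjusted p = 0.00649), and Prnp did not pass (-0.15, adjusted p = 0.283). The call of Efnb2 was lost without either OENr4a3 library.

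In GRCm38, as annotated by GENCODE M21 and matched by Ensembl identifier, the 7 members whose calls held in all alternative fits are protein-coding genes. The inhibitor genes are Reck (ENSMUSG00000028476) on chromosome 4 from 43875530 to 43944806, plus strand, and Timp1 (ENSMUSG00000001131) on chromosome X from 20870166 to 20874735, plus strand. The MMP genes are Mmp11 (ENSMUSG00000000901) on chromosome 10 from 75923222 to 75936496, minus strand, and Mmp13 (ENSMUSG00000050578) on chromosome 9 from 7272514 to 7283331, plus strand. The ADAMTS genes are Adamts14 (ENSMUSG00000059901) on chromosome 10 from 61197112 to 61273438, minus strand, and Adamts15 (ENSMUSG00000033453) on chromosome 9 from 30899155 to 30922452, minus strand. The ADAM gene is Adam22 (ENSMUSG00000040537) on chromosome 5 from 8072352 to 8368160, minus strand. Timp1 lies on the other strand from Syn1, which measured 1.85 CPM in OENr4a3 and 1.39 CPM in OECtrl and did not pass (adjusted p = 0.415). Reck and Adam22 overlap predicted genes that were not tested, and Mmp13, Adamts14 and Adamts15 overlap no annotated gene.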

How the data were processed

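RNA of mouse cardiac fibroblasts was sequenced in 4 libraries, 2 each of OENr4a3 and OECtrl, grouped by title. Per the labels' protocols, RNA was taken with TRIzol, depleted of ribosomal RNA and made into stranded libraries, although the molecule is labelled polyA RNA. The authors deposited whole-number counts per Ensembl gene. The genome build was mm10 and the tools were Subread 1.5.1 with featureCounts, SAMtools and Trimmomatic 0.36, per the submitters' processing notes. The aligner, the annotation release and any use of strand in counting were not given in the sources used here. Each gene's deposited exonic length was used for RPKM and the length trend, and 4 deposited per-sample FPKM columns were not used.

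The main test used edgeR 4.0.16 in R 4.3.3: filterByExpr, TMM scaling, and the quasi-likelihood F-test, two-sided, OENr4a3 over OECtrl, with Benjamini-Hochberg adjustment over 15029 genes and a threshold of 0.05. Each SE is the absolute log2 fold change divided by the root of its F statistic. CPM values use library sizes after TMM scaling, and RPKM is CPM per kilobase of exonic length. Intervals of fold changes are 95%. In simulated counts for OENr4a3 against OECtrl (14761 genes tested), 46.3% of genes changed 1.5-fold, 75.0% changed 2-fold and 96.6% changed 4-fold were called, and 4.14% of 145 calls were unchanged genes. The simulation gave all genes and both groups the same relative spread, unlike the real pairs. It changed 82, 60 and 58 genes at these folds, while 3457 genes were called in the data. Its rates therefore need not hold for the real comparison.

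Alternatives were DESeq2 1.42.0, limma-voom (limma 3.58.1), edgeR with upper-quartile or DESeq2 scaling, no filter, 1 CPM in 2 libraries, leaving out each library, a replicate block, and removal, per library, of the trend between log2 CPM and exonic length (lowess, span 0.3). The members, lists and alternatives were chosen with earlier results of these data known. Named were Nr4a3, members that passed, members of at least 10 CPM that did not, the highest RPKM of each family, the 3 untested members with the most reads, and in each list the 3 smallest p and the most abundant gene not passing. A gene that this rule names in a list is not reported here. Other genes named were chosen after their values were seen: Chchd10, Tbc1d2b, 1700020L24Rik and Syn1 as overlapping genes, Vcan, and the members Mmp8, Mmp9, Mmp10, Mmp27, Adamts3, Adamts4, Adamts20, Adam23, Timp4 and the untested Mmp genes of the chromosome 9 run. Of the marker lists, 3 of 9 fibroblast genes rose and 2 fell, 2 of 7 endothelial genes fell, 2 of 7 tested smooth muscle and pericyte genes rose and 3 fell, 2 of 3 tested cardiomyocyte genes rose and 1 fell, and no neutrophil gene was tested. Over all tested genes, 12.0% rose and 11.0% fell. Promoter sequences are those of RefSeq (GRCm38.p6) for 55 of the 86 members.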

Additional observations from a re-analysis of the deposited data

How the results depend on the processing

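Of the 18 called members, 7 kept direction and call in all 12 alternative fits, 11 lost their call in at least 1, and none changed sign. The number of called genes was 3457 and that of members called higher 14. Testing every gene with a read left 1878 and 9. Leaving out 1 library gave 1203 to 7133 genes, 5 to 25 members called higher and 3 to 5 called lower. The fewest genes came without OENr4a3 replicate 2 (1203 genes, 6 members higher) and replicate 1 (1300 and 5), and the most without OECtrl replicate 1 (7133 and 25). Such a fit has 1 library in a group, which is assumed to vary like the other pair, and the OECtrl pair differed more. The block on the replicate number gave 3851 genes, with 17 members higher and 4 lower, and kept all 18 calls. The numbers are not said to mark a shared culture, and deviations of same-numbered libraries correlated at -0.08 across 15029 genes, so the pairing was not used.

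Among the genes named here, signs changed for values that did not pass, and the cause was not tested. With the length trend removed, Adam10 stood at -0.0132, Adam12 at -0.10, Adam15 at -0.0815, Adam17 at -0.0345, Adam23 at -0.48, Adamts4 at -0.0310, Adamts20 at -0.17, Adamts5 at -0.21, Adamts8 at -0.0056, Adamtsl2 at -0.0790, Mmp14 at -0.0647, Mmp16 at -0.0714, Snx9 at 0.0336 and Prnp at 0.0015. With upper-quartile factors Adamts8 stood at -0.0146 and Mmp19 at -0.0169, and without the filter Snx9 at 0.0077. Leaving out 1 library gave the range -0.0768 to 0.13 for Adamts8, -0.16 to 0.0191 for Adamtsl4, -0.0380 to 0.16 for Adam15, -0.29 to 0.21 for Adamtsl3, -0.47 to 0.0456 for Timp3, -0.10 to 0.47 for Mmp16 and -0.0275 to 0.0345 for Snx9. Members below 10 CPM that did not pass, such as Adam23, Adamts4 and Adamts20, were followed singly only in the fit without the length trend. Sign changes of those members in the other fits are therefore not listed. With 2 libraries per group, small differences can be missed. In the simulation, which gave both groups the same spread, 46.3% of 1.5-fold changes were called, a rate that need not hold here.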
